A study of Homo sapiens with 12 samples.

Results

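The genes of the respiratory chain were examined in U-87 MG (U87) glioblastoma cells, an established human line, under hypoxia. A gene was a member if its symbol began with MT-ND, MT-CO, MT-CYB or MT-ATP, which are encoded by mitochondrial DNA, or, among nuclear genes, with NDUFA, NDUFB, NDUFC, NDUFS or NDUFV, with UQCR, with COX4 to COX8 or with ATP5, or if it was SDHA, SDHB, SDHC or SDHD. The assembly factors whose symbols begin with NDUFAF were not members. This gave 104 of the 20263 genes in the table, of which 13 are mitochondrially encoded and 91 are nuclear. The rule used symbols alone, but it was set with earlier results of these data known.

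Transcripts were measured by mRNA sequencing in 12 libraries, 3 in each of 4 groups. All groups were U87 cells held at 1% O2, so that no library shows the chain at higher oxygen. The labels of these libraries give 72 hours of hypoxia, while the methods give a shorter time for mRNA detection in general, so the time is uncertain. The vector group carried an empty vector and kept both hypoxia-inducible factors. By their labels, the HIF1α-ko group had lost HIF1α, the HIF2α-ko group had lost HIF2α, which is encoded by EPAS1, and the HIF1α/2α-ko group had lost both. Whether each knockout line was a pool of cells or a single clone, and whether the libraries of a group came from separate cultures, is not given in the sources used here, so the p-values measure only the spread between these libraries, which may be technical. The values are length-corrected transcript abundances (TPM), which add up to nearly the same total in every library and keep no record of sequencing depth, and the depth behind each value is unknown. In such bulk libraries, fewer cells that make a transcript and less of it in each cell cannot be told apart.

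The respiratory chain is a series of protein complexes in the inner mitochondrial membrane. Complexes I (NADH dehydrogenase) and II (succinate dehydrogenase) pass electrons to coenzyme Q, complex III (cytochrome bc1) passes them on to cytochrome c, and complex IV (cytochrome c oxidase) hands them to oxygen. Complexes I, III and IV pump protons, and complex V (ATP synthase) uses the returning protons to make ATP. Most subunits are encoded in the nucleus and imported, while a small set is encoded on mitochondrial DNA, transcribed there as long precursors and cut into single messages, and complex II is wholly nuclear. Under low oxygen, HIF1α is known to shift cells away from respiration by inducing PDK1, BNIP3 and exchanged subunits such as NDUFA4L2 and COX4I2.

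The targeted genes were read first. HIF1A transcript was at 110 to 151 TPM in vector and at 38.6 to 57.3 TPM in HIF1α-ko, a log2 fold change of −1.34 ± 0.20 (SE) with a limma adjusted p of 0.000851. In HIF1α/2α-ko it was at 67.8 to 89.2 TPM (−0.71 ± 0.20, limma adjusted p = 0.0104), which was above its level in HIF1α-ko in every library. In HIF2α-ko, which keeps HIF1α, it was at 108, 76.1 and 76.6 TPM (−0.52 ± 0.20, limma adjusted p = 0.112), so that the dual knockout and HIF2α-ko overlapped and their difference was −0.19 ± 0.20 (limma adjusted p = 0.453). EPAS1 was at 286 to 346 TPM in vector, 87.6 to 118 TPM in HIF2α-ko and 101 to 130 TPM in HIF1α/2α-ko, with limma adjusted p of 0.000375 and 1.3e-05. A knockout can leave its transcript in place, so these levels do not measure the proteins. Of the markers fixed for an astrocytic glioblastoma line, VIM (5635 to 14690 TPM), CD44 (399 to 1412 TPM) and EGFR (22.6 to 120 TPM) were high or moderate, NES (2.64 to 6.17 TPM) and OLIG2 (0.884 to 19.2 TPM) were low, and GFAP, S100B and SOX2 stayed under 1 TPM in all 12 libraries. These markers moved between groups. From vector to HIF1α/2α-ko, EGFR went from 81.9 to 120 TPM down to 22.6 to 25.5 TPM, and OLIG2 went from 0.884 to 2.70 TPM up to 7.61 to 19.2 TPM. The part of such differences between the lines in the results below was not tested.

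A test was possible for the 96 members that reached 1 TPM in at least 3 libraries, comprising all 13 mitochondrially encoded genes and 83 nuclear genes. The other 8 nuclear members were ATP5F1EP2, a processed pseudogene, ATP5MGL, COX4I2, COX6A2, COX6B2, COX7A1, COX7B2 and COX8C, and none of them passed 0.328 TPM in any library. Fold changes below are differences of mean log2(TPM + 1) between groups, tested with limma and adjusted by Benjamini-Hochberg over 11731 genes, and "rose" or "fell" is written of an adjusted p under 0.05. The +1 shrinks the changes of low genes. The 3 comparisons with vector share the vector libraries, so their results are not independent of each other.

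On the TPM scale, loss of HIF1α, HIF2α or both was accompanied by higher nuclear respiratory chain transcripts. Summed over the 91 nuclear members, the vector libraries held 11624, 12389 and 12026 TPM, the HIF1α-ko libraries 14288, 13279 and 14395 TPM, the HIF2α-ko libraries 14149, 13283 and 13726 TPM, and the HIF1α/2α-ko libraries 15607, 15359 and 14882 TPM. On this scale every knockout library was above every vector library, and every dual knockout library was above every single knockout library. As means ± SD (n = 3), the sums were 12013 ± 383, 13987 ± 616, 13719 ± 433 and 15283 ± 368 TPM. Neither order held after rescaling by the median ratio, which sets the median gene of each library level. The rescaled sums of the vector libraries were 11925, 13882 and 12614, those of HIF1α-ko 14234, 11547 and 13311, those of HIF2α-ko 16811, 14217 and 14562, and those of the dual knockout 15773, 13087 and 12423. There only HIF2α-ko lay above the whole vector range, and the libraries of HIF1α/2α-ko overlapped those of every other group.

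**Figure D1:**
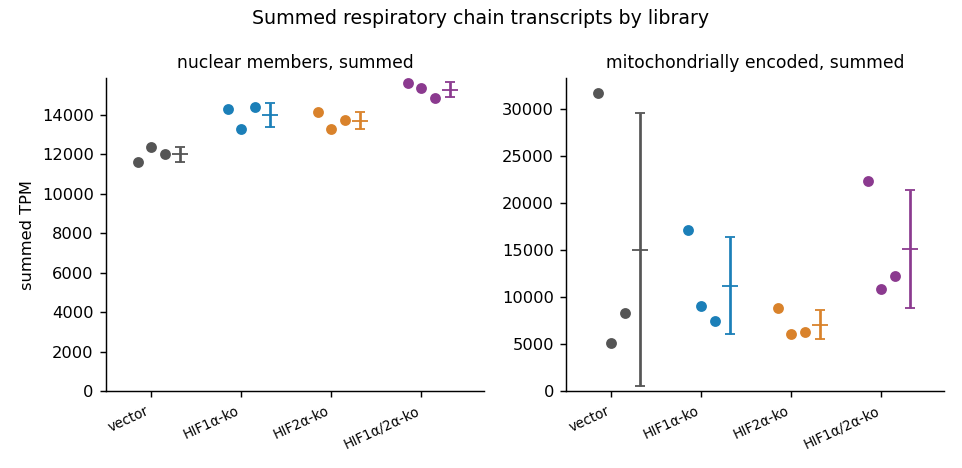
Summed TPM of the 91 nuclear members (left) and the 13 mitochondrially encoded members (right) in each group, with 1 point for each library in the order of replicates 1, 2 and 3, and the mean ± SD to the right of the points. The nuclear sums of the knockout libraries lie above the vector range of 11624 to 12389 TPM, which after median ratio scaling held for HIF2α-ko alone, while the mitochondrial sums spread from 5169 to 31678 TPM within vector alone.

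Among the 83 nuclear members tested, 33 rose and 1 fell in HIF1α-ko, where 17.3% of all genes tested rose and 8.77% fell. In HIF2α-ko, 20 rose and 3 fell, against 5.07% and 5.89% of all genes. In HIF1α/2α-ko, 45 rose and 2 fell, against 31.8% and 14.8% of all genes. As shares of the members, the rises were 39.8%, 24.1% and 54.2%. The median log2 fold change of the members was 0.33, 0.24 and 0.43 in the 3 comparisons, and that of all genes was 0.18, −0.04 and 0.21.

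Because the median gene itself moved on the TPM scale, the tests were repeated on the libraries rescaled by the median ratio, which brought the all-gene medians to 0.01, −0.00 and −0.00. On that scale 12 members rose and 3 fell in HIF1α-ko (11.0% and 13.2% of all genes), 19 rose and 1 fell in HIF2α-ko (6.49% and 4.94%), and 26 rose and 7 fell in HIF1α/2α-ko (23.5% and 23.0%). The member medians became 0.15, 0.29 and 0.18, all still above 0. As shares of the members on this scale, the rises were 14.5%, 22.9% and 31.3% and the falls 3.61%, 1.20% and 8.43%. The share that rose exceeded that of all genes by less in HIF1α-ko and HIF1α/2α-ko than in HIF2α-ko, and the share that fell was below that of all genes in each comparison. Single libraries moved the TPM counts. Without vector replicate 3, 21 members rose in HIF1α-ko and 9 in HIF2α-ko, where 9.11% and 2.15% of all genes rose. Without HIF1α-ko replicate 3, 17 rose in HIF1α-ko (8.61% of all genes). Without replicate 1, 2 or 3 of HIF2α-ko, 12, 12 and 11 rose in HIF2α-ko (3.15%, 2.13% and 2.32% of all genes). The count in HIF1α/2α-ko stayed between 40 and 48 whichever library was left out.

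**Figure D2:**
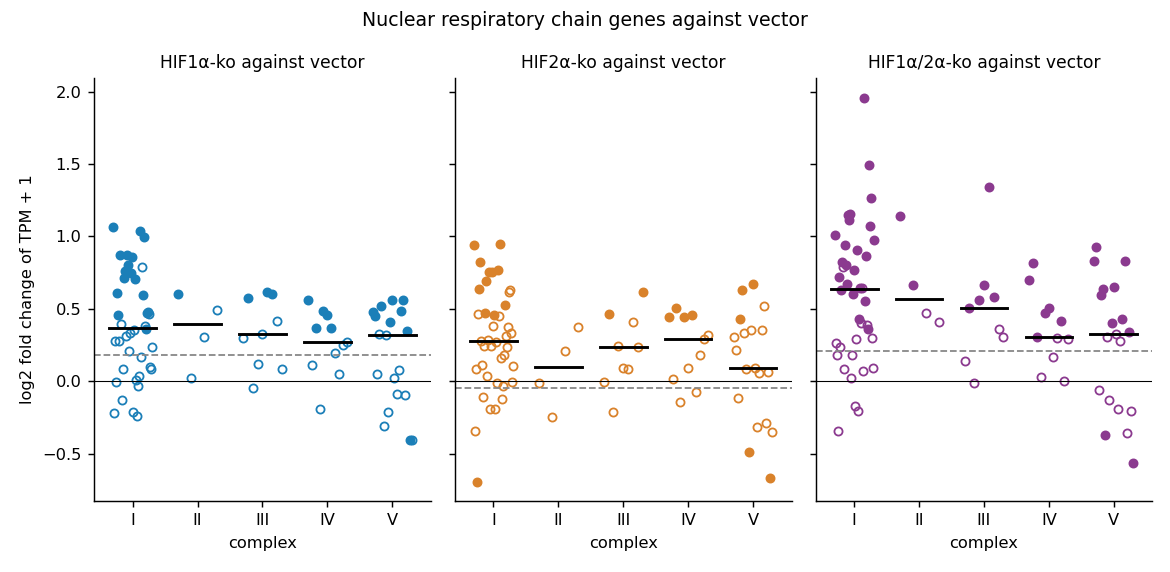
Log2 fold change of TPM + 1 of each of the 83 nuclear members tested (1 point for each gene) by complex in each knockout group against vector. Filled points passed the test, black bars are the medians of the complexes, and the dashed line is the median of all genes (0.18, −0.04 and 0.21). In HIF1α/2α-ko the complex I median was 0.64, and complex V held both members that fell.

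By complex, the dual knockout showed rises in 23 of 40 tested nuclear subunits of complex I, 2 of 4 of complex II, 5 of 9 of complex III, 6 of 11 of complex IV and 9 of 19 of complex V, with median log2 fold changes of 0.64, 0.57, 0.51, 0.31 and 0.33. The corresponding counts were 16, 1, 3, 5 and 8 in HIF1α-ko and 11, 0, 2, 4 and 3 in HIF2α-ko. Of all genes tested, 31.8% rose in HIF1α/2α-ko, 17.3% in HIF1α-ko and 5.07% in HIF2α-ko. These counts are on the TPM scale, where the median gene lay above vector in HIF1α-ko and HIF1α/2α-ko. The 7 nuclear core subunits of complex I, the conserved proteins that carry its redox centres, had a median of 0.86 in HIF1α/2α-ko with 5 rises, 0.48 in HIF1α-ko with 2 and 0.33 in HIF2α-ko with 1.

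A set of 12 nuclear members rose in all 3 knockout groups, 14.5% of those tested, against 1.96% of all genes. They were NDUFA1, NDUFA7, NDUFA8, NDUFB1, NDUFB2 and NDUFS3 of complex I, UQCR11 of complex III, COX4I1, COX5B and COX6B1 of complex IV, and ATP5F1E and ATP5ME of complex V. Since the 3 comparisons share their controls, a vector library that happened to be low in a gene would raise it in all of them. Leaving out replicate 1, 2 or 3 of vector gave 16, 9 and 4 such members, where 5.81%, 1.01% and 0.639% of all genes met the same rule. Leaving out replicate 1, 2 or 3 of HIF2α-ko gave 8, 7 and 5 (1.16%, 0.793% and 0.818% of all genes). There were 5 with median ratio scaling (1.56%) and 4 when each comparison was fitted on its own libraries (0.529%).

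Another 10 members were higher in HIF1α/2α-ko than in each single knockout group. They were NDUFA6, NDUFA9, NDUFS1, NDUFS6 and NDUFV3 of complex I, SDHA and SDHB of complex II, UQCRFS1 of complex III, COX5A of complex IV and ATP5F1B of complex V. These were 10 of 83, and 14.3% of all genes did the same, so the share of the members was not above the background.

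Promoter sequence is shown for members of both sets. Each set was picked from these data by the direction of its changes, so that its members moved together follows from that choice. RefSeq promoter windows on GRCh38.p14 were at hand for 67 of the 83 nuclear members tested, and the 250 bases before the start were searched on both strands for the core of the hypoxia response element (ACGTG or GCGTG), for the ETS core CCGGAAG, which GABP binds, and for the consensus motif of the nuclear respiratory factor NRF1. A match of the last can hold the whole of the first, as in NDUFA3 and ATP5PO, so the same letters can count for both. A hypoxia response core was in 39 of the 67 windows (58.2%), against 43.2% of all 35116 promoters, in 10 of the 12 windows of the set raised in all knockouts, and in 6 of the 9 windows of the set highest in the dual knockout. The ETS core was in 17 of the 67 (25.4%, against 8.52% of all promoters), in 5 of the 12 and in 2 of the 9. The NRF1 motif was in 14 of the 67 (20.9%, against 5.07%), in 2 of the 12 and in 3 of the 9. The 67 windows belong to members that were tested, while the 35116 promoters were not limited to the 11731 genes tested. The shares therefore compare unlike sets. Whether the members differ from other tested genes in these motifs was not tested. A match of letters is not a bound site.

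The following stretches of these windows lie outside every exon annotated by GENCODE 29, are written 5′ to 3′ on the strand of the gene with the matches in capitals, and contrast promoters with and without a match. COX5A (chr15:74938169-74938323, minus strand), NDUFV3 (chr21:42893059-42893264, plus strand) and NDUFS6 (chr5:1801157-1801333, plus strand) belong to the set highest in the dual knockout, and UQCR11 (chr19:1605491-1605712, minus strand) and COX5B (chr2:97645812-97646039, plus strand) to the set raised in all. They hold 1, 3, 0, 2 and 0 hypoxia response cores and 0, 0, 0, 2 and 1 ETS cores in that order, and no NRF1 motif. The 2 hypoxia response cores of UQCR11 are 1 site, CACGTG, matched on both strands. By the same count, the whole 250-base windows of COX5A and UQCR11 hold 3 hypoxia response cores each, and that of UQCR11 holds 2 NRF1 motifs. The matches outside these stretches are not shown.
COX5A: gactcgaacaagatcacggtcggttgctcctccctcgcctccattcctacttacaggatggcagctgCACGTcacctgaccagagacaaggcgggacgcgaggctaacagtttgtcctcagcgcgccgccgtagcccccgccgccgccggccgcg
NDUFV3: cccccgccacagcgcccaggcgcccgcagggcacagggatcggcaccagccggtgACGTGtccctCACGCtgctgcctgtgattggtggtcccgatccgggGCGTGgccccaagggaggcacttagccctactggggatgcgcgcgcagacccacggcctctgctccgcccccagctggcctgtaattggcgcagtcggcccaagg
NDUFS6: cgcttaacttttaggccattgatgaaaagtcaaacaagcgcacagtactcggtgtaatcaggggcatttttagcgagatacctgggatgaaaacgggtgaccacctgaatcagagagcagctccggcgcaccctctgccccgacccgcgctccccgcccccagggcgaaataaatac
UQCR11: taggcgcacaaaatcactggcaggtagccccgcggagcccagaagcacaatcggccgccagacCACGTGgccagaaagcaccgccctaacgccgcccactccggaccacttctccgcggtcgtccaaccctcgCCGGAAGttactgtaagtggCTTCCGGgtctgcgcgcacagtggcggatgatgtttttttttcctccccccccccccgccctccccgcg
COX5B: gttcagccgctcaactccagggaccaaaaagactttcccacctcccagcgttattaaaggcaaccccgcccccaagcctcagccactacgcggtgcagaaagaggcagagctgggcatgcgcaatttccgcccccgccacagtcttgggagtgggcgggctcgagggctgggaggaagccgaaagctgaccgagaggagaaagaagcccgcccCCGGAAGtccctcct

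Complex I is the largest complex of the chain, and its nuclear members included the steepest rises. NDUFS6, a zinc-binding accessory subunit, was at 43.0, 30.7 and 31.3 TPM in vector, 55.4, 44.2 and 45.9 TPM in HIF1α-ko, 50.5, 41.2 and 44.2 TPM in HIF2α-ko and 102, 96.4 and 99.4 TPM in HIF1α/2α-ko. The dual knockout libraries stood apart from all others, and replicate 1 was the highest in every group. The log2 fold change against vector was 1.49 ± 0.15 in HIF1α/2α-ko (limma adjusted p = 1.49e-05), 0.47 ± 0.15 in HIF1α-ko (0.0394) and 0.37 ± 0.15 in HIF2α-ko (0.135). The call in HIF1α-ko was lost without any 1 of 9 libraries.

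NDUFS1, the largest core subunit, carries several iron-sulfur clusters. It was at 4.86, 1.15 and 3.76 TPM in vector, 3.52, 6.80 and 7.73 TPM in HIF1α-ko, 2.06, 3.80 and 2.83 TPM in HIF2α-ko and 18.4, 18.7 and 8.23 TPM in HIF1α/2α-ko. Its dual knockout libraries were above all others, but the lowest exceeded the highest HIF1α-ko library only slightly. The change in HIF1α/2α-ko was 1.96 ± 0.40 (limma adjusted p = 0.00169), with an error several times that of NDUFS6. The difference between HIF1α/2α-ko and HIF1α-ko (1.17 ± 0.40, limma adjusted p = 0.0446) was lost without any 1 of 9 libraries.

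NDUFS8, a core iron-sulfur subunit near the quinone site, was at 69.8 to 88.7 TPM in vector and 172 to 220 TPM in HIF1α/2α-ko, a rise of 1.26 (limma adjusted p = 0.00266). In HIF2α-ko it was at 218, 91.5 and 92.0 TPM, so replicate 1 alone matched the dual knockout level. NDUFS3, another core subunit, was at 46.6, 40.4 and 42.7 TPM in vector, 85.9, 83.7 and 91.3 TPM in HIF1α-ko, 66.9, 59.6 and 61.7 TPM in HIF2α-ko and 77.3, 86.3 and 74.6 TPM in HIF1α/2α-ko. No knockout library reached down into the vector range, and the 2 groups without HIF1α were the highest. Its changes were 0.99 ± 0.11, 0.53 ± 0.11 and 0.86 ± 0.11 (limma adjusted p = 0.00024, 0.0131 and 8.42e-05).

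NDUFA1, an accessory subunit of the membrane arm encoded on the X chromosome, was at 87.1, 67.8 and 70.5 TPM in vector, 134, 149 and 194 TPM in HIF1α-ko, 133, 141 and 159 TPM in HIF2α-ko and 139, 168 and 148 TPM in HIF1α/2α-ko. The 3 knockout groups overlapped each other and none overlapped vector. Its changes were 1.06, 0.94 and 1.01, each with an SE of 0.16 (limma adjusted p = 0.000869, 0.00468 and 0.000242).

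The accessory subunits of the membrane arm did not all follow this order. NDUFC1 was at 56.3 to 58.8 TPM in vector, 49.9, 52.1 and 79.2 TPM in HIF1α-ko, 93.4, 127 and 119 TPM in HIF2α-ko and 69.7, 88.3 and 72.4 TPM in HIF1α/2α-ko, with a rise of 0.95 in HIF2α-ko (limma adjusted p = 0.0075). NDUFB8, named after its values were seen, was at 217 to 240 TPM in vector, 171 to 232 TPM in HIF1α-ko, 367 to 430 TPM in HIF2α-ko and 275 to 326 TPM in HIF1α/2α-ko. It rose by 0.77 ± 0.13 in HIF2α-ko (limma adjusted p = 0.00548) and was lower in HIF1α-ko than in HIF2α-ko by 1.01 ± 0.13 on the log2 scale (difference −1.01, limma adjusted p = 0.000304). NDUFA3, a small membrane arm subunit, was at 57.8 to 80.9 TPM in vector, 71.1 to 96.3 TPM in HIF1α-ko, 111 to 128 TPM in HIF2α-ko and 84.3 to 116 TPM in HIF1α/2α-ko, with rises in HIF2α-ko (0.82, limma adjusted p = 0.0112, lost without vector replicate 3) and HIF1α/2α-ko (0.63, 0.0097). NDUFC2, the partner of NDUFC1, was instead highest in HIF1α-ko, at 49.9 to 61.8 TPM against 16.6 to 39.3 TPM in vector, a rise of 1.04 (limma adjusted p = 0.02) that was lost without any 1 of 4 libraries. A read-through transcript that joins NDUFC2 to its neighbour, NDUFC2-KCTD14, is listed at 0 in 8 libraries, and how reads were divided between them is not given in the sources used here. NDUFA12, a matrix arm subunit, was the only complex I member that fell, in HIF2α-ko (−0.69, limma adjusted p = 0.045), at 21.7 to 23.9 TPM against 28.4 to 45.5 TPM, and the call was lost without any 1 of 9 libraries.

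Complex II links the chain to the citric acid cycle. SDHA, the flavoprotein that oxidizes succinate (chromosome 5, 218241 to 256700, plus strand, GENCODE 29), was at 99.8, 102 and 88.7 TPM in vector, 157, 143 and 142 TPM in HIF1α-ko, 105, 92.7 and 89.9 TPM in HIF2α-ko and 231, 214 and 200 TPM in HIF1α/2α-ko. The HIF2α-ko libraries lay within or close to the vector range, HIF1α-ko lay above both and the dual knockout above all. SDHA rose by 0.60 ± 0.11 in HIF1α-ko (limma adjusted p = 0.00318) and by 1.14 ± 0.11 in HIF1α/2α-ko (1.3e-05), and the difference in HIF2α-ko was −0.01 ± 0.11 (0.967). With median ratio scaling the HIF1α-ko call was lost.

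SDHB, the iron-sulfur subunit (chromosome 1, 17018722 to 17054170, minus strand), was at 91.7, 137 and 139 TPM in vector, 121, 123 and 124 TPM in HIF1α-ko, 99.4, 95.3 and 110 TPM in HIF2α-ko and 188, 190 and 197 TPM in HIF1α/2α-ko. Neither single knockout left the vector range, while every dual knockout library was above it. The change in HIF1α/2α-ko was 0.67 ± 0.15 (limma adjusted p = 0.00289), which was not called with median ratio scaling. The membrane anchors SDHC (10.4 to 20.4 TPM over the 12 libraries) and SDHD (27.8 to 65.0 TPM) passed no test against vector, with changes of 0.47 (limma adjusted p = 0.058) and 0.41 (0.27) in HIF1α/2α-ko.

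In complex III, UQCRFS1 encodes the Rieske iron-sulfur protein. It was at 17.0, 14.9 and 18.4 TPM in vector, 24.6, 26.8 and 27.2 TPM in HIF1α-ko, 18.0, 17.3 and 18.0 TPM in HIF2α-ko and 40.4, 46.9 and 44.4 TPM in HIF1α/2α-ko. The order was that of SDHA, with HIF2α-ko inside the vector range. The rises were 0.62 ± 0.13 in HIF1α-ko (limma adjusted p = 0.00486) and 1.34 ± 0.13 in HIF1α/2α-ko (9.57e-06).

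The core protein UQCRC2 rose in the dual knockout, from 51.4 to 59.0 TPM in vector to 81.0 to 91.9 TPM (0.66, limma adjusted p = 0.00074). UQCR11, a small subunit, was at 122 to 147 TPM in vector and at 182 TPM or more in all 9 knockout libraries, with rises of 0.58, 0.47 and 0.51 (limma adjusted p = 0.0029, 0.017 and 0.0021). UQCRQ, a small subunit near the quinone sites, rose in HIF2α-ko, at 216 to 271 TPM against 150 to 156 TPM (0.62, limma adjusted p = 0.013), and was lower in HIF1α-ko than in HIF2α-ko (−0.53, 0.014). The hinge protein UQCRH was at 305 to 426 TPM in vector, 500 to 645 TPM in HIF1α-ko and 539 to 572 TPM in HIF1α/2α-ko, where it rose by 0.60 and 0.58 (limma adjusted p = 0.0074 and 0.0038). With median ratio scaling both of these UQCRH calls were lost, as were those of UQCR11 in HIF1α-ko and HIF1α/2α-ko. UQCRHL, a nearly identical copy of UQCRH, was listed at 1.75 to 4.21 TPM, and how reads were shared between the copies is not given in the sources used here.

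Complex IV is the site where oxygen is used, and its regulatory nuclear subunits surround a mitochondrially encoded core. COX5A was at 121, 128 and 144 TPM in vector, 154, 128 and 143 TPM in HIF1α-ko, 127, 135 and 134 TPM in HIF2α-ko and 246, 221 and 227 TPM in HIF1α/2α-ko. Only the dual knockout libraries left the range of the rest by a wide margin, with a rise of 0.82 ± 0.11 (limma adjusted p = 0.000113) against 0.11 and 0.02 in the single knockouts. COX5B, a zinc-binding subunit, was at 305 to 351 TPM in vector, 378 to 442 TPM in HIF1α-ko, 456 to 461 TPM in HIF2α-ko and 395 to 404 TPM in HIF1α/2α-ko, and rose in all 3 (0.37, 0.51 and 0.31). COX6B1 rose in all 3 as well (0.48, 0.45 and 0.47), and COX6C rose in HIF1α-ko (0.45) and HIF1α/2α-ko (0.50) but not in HIF2α-ko (0.09). COX7A2 rose in HIF1α-ko (0.37) and HIF2α-ko (0.46), and its difference in HIF1α/2α-ko was 0.16 (limma adjusted p = 0.27). With median ratio scaling every one of these COX6B1 and COX6C calls was lost. So were those of COX5B in HIF1α-ko and HIF1α/2α-ko and of COX7A2 in HIF1α-ko.

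In complex V, the catalytic β subunit ATP5F1B was at 331, 322 and 331 TPM in vector, 471, 420 and 452 TPM in HIF1α-ko, 436, 358 and 350 TPM in HIF2α-ko and 621, 638 and 610 TPM in HIF1α/2α-ko. All 9 knockout libraries exceeded the vector range, those of the dual knockout by the most. It rose by 0.45 ± 0.11 in HIF1α-ko (limma adjusted p = 0.01) and 0.92 ± 0.11 in HIF1α/2α-ko (3.29e-05), and the difference in HIF2α-ko was 0.21 ± 0.11 (0.222). The α subunit ATP5F1A followed, with rises of 0.48 and 0.83 in the groups without HIF1α.

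**Figure D3:**
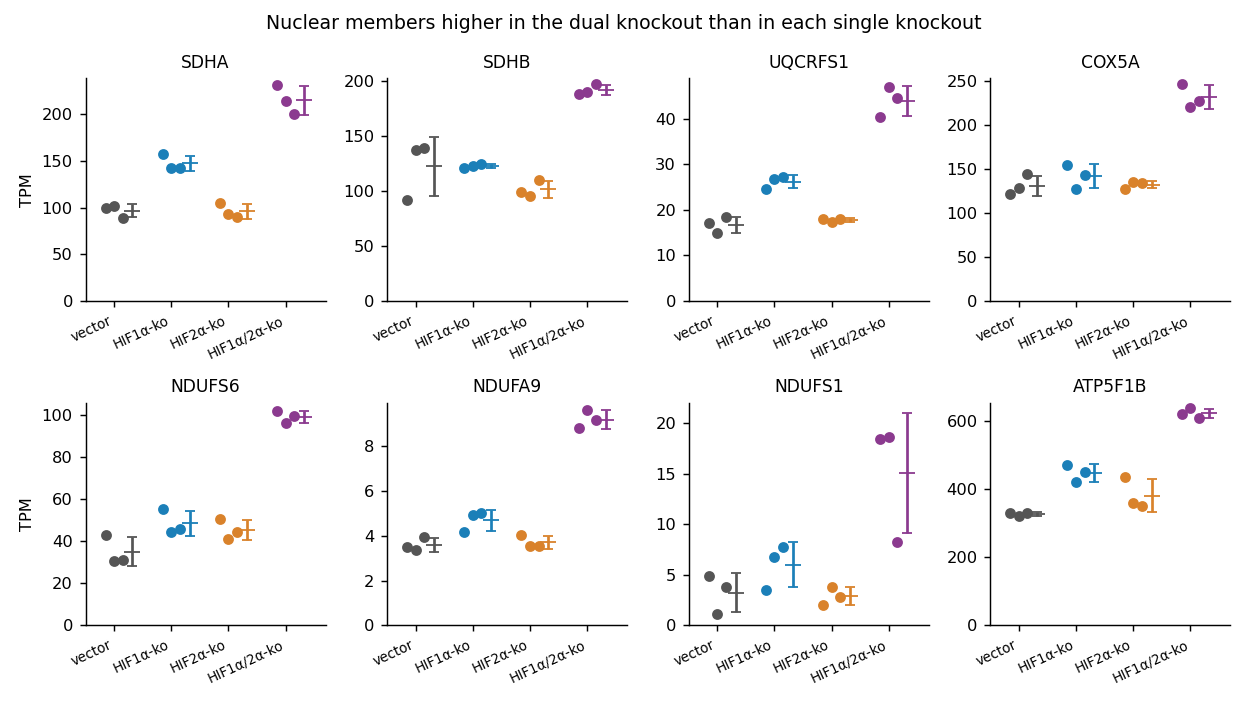
TPM of 8 nuclear members that were higher in HIF1α/2α-ko than in each single knockout, with 1 point for each library in the order of replicates 1, 2 and 3 and the mean ± SD beside them (n = 3). The dual knockout points lie above all others in every panel. NDUFS1 lies at 8.23 to 18.7 TPM in the dual knockout.

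Complex V also held most of the members that fell. ATP5PF, coupling factor 6 of the peripheral stalk, was at 138, 125 and 170 TPM in vector, 101, 111 and 112 TPM in HIF1α-ko, 86.5, 88.5 and 94.0 TPM in HIF2α-ko and 123, 121 and 129 TPM in HIF1α/2α-ko. Both single knockout groups lay below the vector range, and the dual knockout overlapped it. The changes were −0.40 ± 0.12 (limma adjusted p = 0.0314), −0.67 ± 0.12 (0.00678) and −0.20 ± 0.12 (0.197). ATP5MC2, which encodes the c subunit of the rotating ring, fell in HIF2α-ko (−0.49, limma adjusted p = 0.025), at 627 to 712 TPM against 863 to 1013 TPM.

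ATP5PO, the stalk protein OSCP, fell in HIF1α/2α-ko (−0.57, limma adjusted p = 0.02), at 152 to 201 TPM against 219 to 302 TPM. ATP5IF1, the inhibitor that limits ATP hydrolysis when the proton gradient collapses, was at 180, 185 and 177 TPM in vector, 169, 137 and 134 TPM in HIF1α-ko, 218, 231 and 233 TPM in HIF2α-ko and 160, 128 and 133 TPM in HIF1α/2α-ko. The groups without HIF1α lay below vector and HIF2α-ko lay above it. Only the fall in HIF1α/2α-ko passed against vector (−0.37 ± 0.12, limma adjusted p = 0.025), and ATP5IF1 was lower in HIF1α-ko than in HIF2α-ko (−0.64 ± 0.12, 0.00339) and lower in HIF1α/2α-ko than in HIF2α-ko (−0.70 ± 0.12, 0.000607). Among the complex V rises, ATP5F1E and ATP5ME rose in all 3 knockout groups (0.52, 0.63 and 0.64, and 0.56, 0.67 and 0.65), ATP5MK rose in HIF1α-ko (0.56) and HIF1α/2α-ko (0.83), and ATP5F1D rose in HIF2α-ko (0.43) and HIF1α/2α-ko (0.60). The rises of ATP5F1E in HIF1α-ko and of ATP5F1D in HIF2α-ko were each lost without any 1 of 9 libraries.

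Some of these calls rested on single libraries. Of the calls on the members named by the fixed rule, leaving aside NDUFB8 and members named only as part of a set, 10 of 20 in HIF1α-ko, 12 of 16 in HIF2α-ko and 3 of 27 in HIF1α/2α-ko were lost when some 1 library was left out. The 3 in HIF1α/2α-ko were ATP5IF1, lost without vector replicate 2 or HIF1α/2α-ko replicate 2 or 3, ATP5PO, lost without vector replicate 2 or 3 or HIF1α/2α-ko replicate 1, and COX5B, lost without vector replicate 3 or HIF1α/2α-ko replicate 2 or 3. Their log2 fold changes without such a library lay at −0.36 to −0.31, −0.51 to −0.44 and 0.27 to 0.31. With median ratio scaling, 15 of the 20, 4 of the 16 and 9 of the 27 calls were lost. In HIF1α-ko these were ATP5F1A, ATP5F1B, ATP5F1E, ATP5ME, ATP5MK, COX4I1, COX5B, COX6B1, COX6C, COX7A2, NDUFC2, NDUFS6, SDHA, UQCR11 and UQCRH. In HIF2α-ko they were ATP5F1D, ATP5MC2, COX6B1 and NDUFA12. In HIF1α/2α-ko they were ATP5F1D, COX5B, COX6B1, COX6C, COX7B, NDUFA3, SDHB, UQCR11 and UQCRH. Outside that rule, the rises of NDUFA7 and NDUFA8 in HIF2α-ko were lost without any 1 of 9 and of 4 libraries.

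The isoforms linked to hypoxia were examined next. NDUFA4L2, a HIF-inducible relative of NDUFA4 that is known to lower respiration (chromosome 12, 57234903 to 57240715, minus strand), was at 10.2, 22.2 and 7.36 TPM in vector, 12.7, 19.9 and 16.3 TPM in HIF1α-ko, 10.3, 14.3 and 14.9 TPM in HIF2α-ko and 18.5, 22.1 and 23.9 TPM in HIF1α/2α-ko. Its vector libraries spread over the whole range of the single knockouts, and no group lay below vector. The differences from vector were 0.40 ± 0.31 (limma adjusted p = 0.36), 0.11 ± 0.31 (0.864) and 0.79 ± 0.31 (0.0528), and no call was made in any comparison with vector.

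NDUFA4, whose product is now assigned to complex IV although its symbol places it under complex I in the counts, was at 51.5, 47.6 and 66.0 TPM in vector, 86.1, 98.3 and 120 TPM in HIF1α-ko, 64.6, 63.9 and 70.2 TPM in HIF2α-ko and 87.2, 104 and 101 TPM in HIF1α/2α-ko. Both groups without HIF1α stood above vector and HIF2α-ko. It rose by 0.87 ± 0.16 in HIF1α-ko (limma adjusted p = 0.00246) and 0.82 ± 0.16 in HIF1α/2α-ko (0.00101), against 0.28 ± 0.16 in HIF2α-ko (0.28). NDUFA4L2 made up 10.0% to 31.8% of the summed TPM of NDUFA4L2 and NDUFA4, a scale that corrects for length, both extremes lying in vector.

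COX4I2, the lung and hypoxia isoform of COX4I1, is listed above 0 in 3 of 12 libraries and never above 0.245 TPM, and it is listed at 0 in all HIF1α/2α-ko libraries. The common isoform COX4I1 was at 291, 288 and 252 TPM in vector, 426, 375 and 424 TPM in HIF1α-ko, 384, 360 and 384 TPM in HIF2α-ko and 439, 455 and 457 TPM in HIF1α/2α-ko, with rises of 0.56 ± 0.10, 0.44 ± 0.10 and 0.70 ± 0.10 (limma adjusted p = 0.00263, 0.0165 and 0.000146). The tissue-restricted isoforms COX6A2, COX6B2, COX7A1, COX7B2 and COX8C stayed at or under 0.328 TPM, while their common counterparts COX6A1 (1168 to 1623 TPM), COX6B1 (277 to 450 TPM), COX7A2 (94.0 to 150 TPM), COX7B (55.3 to 81.0 TPM) and COX8A (438 to 717 TPM) were among the abundant transcripts. COX6A1, the most abundant nuclear member, COX8A and COX7A2L, a factor of supercomplex formation, passed no test against vector, and COX7B rose in HIF1α/2α-ko (0.42, limma adjusted p = 0.011).

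**Figure D4:**
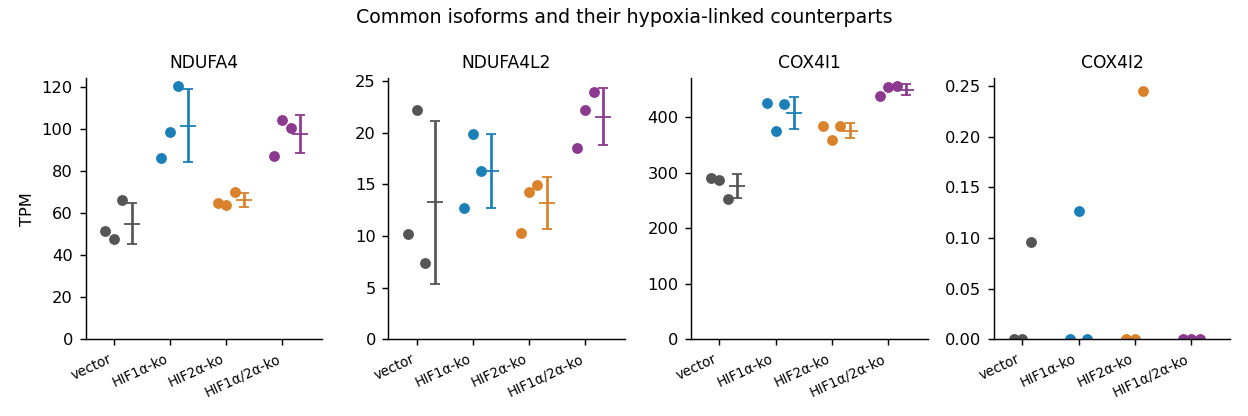
TPM of NDUFA4 and COX4I1 and of their hypoxia-linked counterparts NDUFA4L2 and COX4I2, with 1 point for each library in the order of replicates 1, 2 and 3, and the mean ± SD (n = 3) where no library is at 0. NDUFA4 lies higher in the groups without HIF1α, COX4I1 lies higher in all 3 knockout groups, NDUFA4L2 overlaps between vector and all other groups, and COX4I2 stays under 0.25 TPM.

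The mitochondrially encoded members differed from the nuclear ones in how they varied. Their sum was 31678, 5169 and 8356 TPM in vector, 17151, 9114 and 7468 TPM in HIF1α-ko, 8841, 6104 and 6322 TPM in HIF2α-ko and 22294, 10839 and 12264 TPM in HIF1α/2α-ko. It made up 0.517% to 3.17% of all TPM, both extremes lying in vector. Replicate 1 was the highest library of its group for all 13 genes in all 4 groups, and in vector and HIF1α/2α-ko it exceeded both other libraries by over 1.5 times for all 13. The nuclear members showed no such order, with 24 to 40 of the 83 highest in replicate 1. What set replicate 1 apart was not tested.

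**Figure D5:**
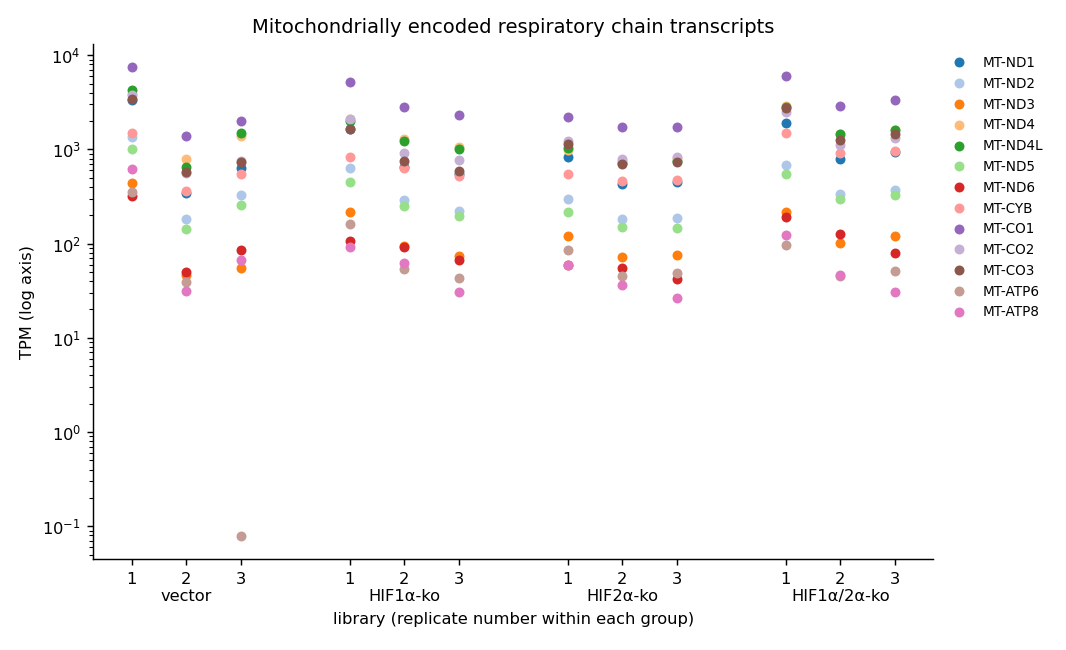
TPM on a log axis of the 13 mitochondrially encoded members in each library, by group and replicate number, with 1 point for each gene and library. All 13 genes are highest in replicate 1 of every group, and MT-ATP6 is at 0.0791 TPM in vector replicate 3.

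Against vector, none of the 13 mitochondrially encoded members was called by limma in any knockout group. Their median log2 fold changes were −0.18, −0.73 and 0.30 in the order HIF1α-ko, HIF2α-ko, dual knockout, within a spread that let MT-CO1, the most abundant, range from 1396 to 7423 TPM in vector alone. Vector replicate 1 decided much of this. Without it, 1 member rose in HIF1α-ko and 7 rose in HIF1α/2α-ko, where 24.1% and 33.0% of all genes rose. Without replicate 1 of every group, a choice made after seeing the values, 2 rose in HIF1α-ko (39.2% of all genes rose in that fit), 1 rose in HIF2α-ko (20.5%) and the dual knockout showed 7 rises (45.3%), so the members' shares in that fit stand against a high background.

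The 3 knockout groups were also compared within replicate numbers, since their same-numbered libraries deviated together (correlation of deviations 0.196 to 0.508), more than with vector (−0.0265 to 0.163). The numbers 2 and 3 could not be told apart in this way. Libraries numbered 2 and 3 correlated with each other across the knockout groups at 0.158 to 0.302, about as much as same-numbered ones among them (0.196 to 0.250), while replicate 1 correlated with them at −0.416 to −0.269. The pairing thus rests on replicate 1 standing apart. Among the knockout groups, at each number the mitochondrial sum was highest in HIF1α/2α-ko and lowest in HIF2α-ko. It was 2.52, 1.78 and 1.94 times as high in HIF1α/2α-ko as in HIF2α-ko for replicates 1, 2 and 3, 1.30, 1.19 and 1.64 times as high in HIF1α/2α-ko as in HIF1α-ko, and 1.94, 1.49 and 1.18 times as high in HIF1α-ko as in HIF2α-ko. Without pairing, only MT-CYB, the mitochondrially encoded subunit of complex III, was called, in HIF1α/2α-ko against HIF2α-ko (1.15, limma adjusted p = 0.032), and that call was lost without any 1 of replicates 1, 2 and 3 of HIF2α-ko and replicates 1 and 3 of HIF1α/2α-ko. Without vector replicate 1, which enters that fit through the shared spread, 8 members were called, all higher in HIF1α/2α-ko (36.3% of all genes were higher in that fit).

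With the replicate number as a block in a fit of the 3 knockout groups (replicate block, chosen after seeing the data), 12 of the 13 were higher in HIF1α/2α-ko than in HIF2α-ko (43.6% of all genes were higher in that fit and 19.0% lower), in the dual knockout 8 exceeded HIF1α-ko (29.0% and 19.5%), and 9 were higher in HIF1α-ko than in HIF2α-ko (37.8% and 12.7%). None was lower. In the first of these the paired differences were 1.05 for MT-CO1 (limma adjusted p = 0.00055), 1.16 for MT-ND4 (0.00024) and 1.27 for MT-ND6 (0.00012), the only member read from the other strand of the circle. MT-ATP6 was the exception at 0.07 (0.76). This block fit was made on the TPM scale and was not repeated with median ratio scaling.

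The shares of the mitochondrially encoded genes of complexes I, III and IV in the mitochondrial sum varied less over the libraries than those of complex V. MT-CO1, the catalytic subunit of complex IV, held 23.4% to 31.4% of the mitochondrial sum, MT-CO2 9.06% to 14.0% and MT-CO3 7.87% to 12.8%. The complex I genes MT-ND4 and MT-ND4L held 11.0% to 16.8% and 11.7% to 17.7%, MT-ND1 6.65% to 10.6%, MT-ND2 2.94% to 4.31%, MT-ND5 2.34% to 3.21%, MT-ND3 0.667% to 1.39% and MT-ND6 0.621% to 1.18%. MT-CYB held 4.76% to 8.36%, with the lowest share in vector replicate 1 and the highest in HIF1α/2α-ko replicate 2. MT-ATP6 held 0.000947% to 1.11%, with both extremes in vector, and MT-ATP8 0.251% to 1.95%. The messages MT-ND4L and MT-ND4 share 7 bases and are carried on 1 transcript, so their counts are not separate measurements.

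The complex V genes MT-ATP8 and MT-ATP6 also share a transcript, and their coding sequences overlap by 46 bases at chrM:8527-8572 on the plus strand of GRCh38. MT-ATP8 starts at 8366 and MT-ATP6 ends at 9207. The shared stretch is shown because a read in it can be given to either gene, with the start codon of MT-ATP6 in capitals:
MT-ATP8 and MT-ATP6 overlap: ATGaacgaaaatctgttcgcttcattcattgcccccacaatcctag

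MT-ATP6 was at 350, 39.4 and 0.0791 TPM in vector, 160, 53.6 and 42.9 TPM in HIF1α-ko, 86.5, 44.8 and 49.1 TPM in HIF2α-ko and 95.9, 44.9 and 51.5 TPM in HIF1α/2α-ko. Vector replicate 3 was far below all 11 other libraries, although MT-ATP8, from the same message, was there at 67.1 TPM and at 617 and 31.1 TPM in vector replicates 1 and 2. The differences of MT-ATP6 from vector (1.55, 1.24 and 1.31, limma adjusted p = 0.45, 0.64 and 0.48) rest on that value. How reads in the overlap were assigned is not given in the sources used here.

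Between the knockout groups, limma called 16 nuclear members higher and 0 lower in the dual knockout relative to HIF1α-ko, where 17.7% of all genes were higher and 10.6% lower. Against HIF2α-ko, 23 were higher and 4 lower in HIF1α/2α-ko (33.5% and 12.9%). In HIF1α-ko against HIF2α-ko, 11 were higher and 6 lower (17.8% and 7.37%). With the replicate block in the 3 knockout groups the counts were 25 and 2, 35 and 10, and 22 and 7, beside the shares of all genes given above for that fit. With median ratio scaling they were 10 and 0 (16.1% and 12.8% of all genes), 10 and 10 (22.6% and 21.8%), and 0 and 7 (8.81% and 11.2%), and the member medians of the last 2 comparisons went from 0.22 to −0.08 and from 0.12 to −0.13. The direction of the nuclear median in these 2 comparisons depended on the scale. Leaving out 1 library at a time gave 9 to 19, 20 to 35 and 8 to 21 calls in the 3 comparisons, with the lowest counts without HIF1α/2α-ko replicate 2 in the first and without HIF2α-ko replicate 1 in the last.

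The effect of losing HIF2α was compared in cells with and without HIF1α by an interaction term. It was called for 17 nuclear members, positive for 8 and negative for 9, where 13.2% and 7.35% of all genes were called. With median ratio scaling 4 were positive and 11 negative (11.1% and 9.57%). Positive terms belonged to SDHA, SDHB, UQCRFS1, COX5A, NDUFS6, NDUFA9, ATP5PF and ATP5MC2. Negative ones belonged to NDUFA1, NDUFA2, NDUFA8, NDUFB2, NDUFS3, UQCR11, COX5B, COX6B1 and COX7A2, of which NDUFA1, NDUFA8, NDUFB2, NDUFS3, UQCR11, COX5B and COX6B1 rose in all 3 knockout groups. A rise of similar size in all 3 groups gives a negative term by arithmetic, from the same vector libraries. This overlap is therefore not a separate result. The count was 10 without HIF1α-ko replicate 3 and without replicate 2 or 3 of HIF2α-ko. None of the mitochondrially encoded members was called.

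Other genes of the pathway were read from lists of known function, which were chosen with earlier results of these data known. The shares of all genes given above are the background for these lists. The median log2 fold changes of the lists in HIF1α/2α-ko were 0.71 for assembly factors, 0.26 for mitochondrial DNA and RNA genes, 1.02 for biogenesis regulators, 0.47 for electron carriers, 0.03 for HIF-linked switch genes and 0.24 for supercomplex and cristae factors, beside 0.21 for all genes. Of 47 tested genes for assembly factors, which build the complexes, 14 rose and 2 fell in HIF1α-ko, 7 rose and 1 fell in HIF2α-ko, and 26 rose and 0 fell in HIF1α/2α-ko (20 and 3 with median ratio scaling). NDUFAF2, which acts late in complex I assembly, was at 25.3 to 28.4 TPM in vector, 23.8 to 25.3 TPM in HIF1α-ko, 13.5 to 16.0 TPM in HIF2α-ko and 65.1 to 72.5 TPM in HIF1α/2α-ko. It fell in HIF2α-ko (−0.82, limma adjusted p = 0.00286) and rose in HIF1α/2α-ko (1.32, 8.08e-06). COX14, needed early in complex IV assembly, was at 34.4 to 36.4 TPM in vector and rose in all 3 groups, to 68.2 to 77.4, 47.1 to 53.6 and 79.3 to 87.6 TPM (1.00, 0.48 and 1.22).

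Genes for mitochondrial DNA replication, transcription and RNA handling showed 3, 2 and 12 rises and 1, 0 and 1 falls among 32 tested in the same order of groups (2, 3 and 11 rises and 3, 0 and 2 falls with median ratio scaling). POLG, the mitochondrial DNA polymerase, was at 16.0 to 16.9 TPM in vector, 28.9 to 31.7 TPM in HIF1α-ko, 20.6 to 24.7 TPM in HIF2α-ko and 42.0 to 50.4 TPM in HIF1α/2α-ko, where it rose by 1.44 (limma adjusted p = 6.1e-06). RNASEH1, which removes RNA primers there, rose in HIF1α/2α-ko (1.77, limma adjusted p = 5.13e-05). TFAM, which packages mitochondrial DNA and starts its transcription, stayed between 0.917 and 2.80 TPM and passed no test against vector.

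Among 8 tested nuclear regulators of mitochondrial biogenesis, 2, 1 and 6 rose and 0, 0 and 1 fell. PPRC1, a coactivator of the PGC-1 family, was at 4.17, 2.90 and 2.09 TPM in vector, 6.38, 8.75 and 8.44 TPM in HIF1α-ko, 2.14, 1.95 and 1.84 TPM in HIF2α-ko and 18.4, 26.9 and 28.2 TPM in HIF1α/2α-ko. HIF2α-ko lay at the low end of vector, HIF1α-ko above it and the dual knockout far above, with a rise of 2.66 (limma adjusted p = 3.86e-06). ESRRA, an orphan receptor that drives respiratory genes, rose in all 3 groups (1.11, 0.87 and 1.96), from 6.65 to 8.50 TPM in vector to 26.2 to 47.4 TPM in the dual knockout. PPARGC1A, which encodes PGC-1α, went the other way in HIF1α/2α-ko (−0.76, limma adjusted p = 0.00353), at 0.120 to 0.277 TPM against 0.763 to 1.29 TPM.

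Electron carriers and the enzymes of coenzyme Q synthesis gave 3, 2 and 6 rises and 1, 1 and 1 falls among 12 tested. CYCS, cytochrome c, was at 4.42, 2.89 and 3.29 TPM in vector, 4.55, 6.72 and 7.23 TPM in HIF1α-ko, 4.93, 6.67 and 6.23 TPM in HIF2α-ko and 19.5, 28.6 and 27.7 TPM in HIF1α/2α-ko. Its dual knockout libraries were all above every other library, with a rise of 2.53 (limma adjusted p = 4.4e-06). COQ2, an early enzyme of coenzyme Q synthesis, rose there by 0.96 (limma adjusted p = 0.000157).

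The genes through which HIF is known to act on mitochondria served as a comparison. BNIP3, a mitophagy receptor, was at 645, 1123 and 1289 TPM in vector, 63.1, 80.1 and 72.0 TPM in HIF1α-ko, 982, 1036 and 1074 TPM in HIF2α-ko and 135, 139 and 136 TPM in HIF1α/2α-ko. The groups without HIF1α lay far below the others and did not overlap each other. It fell in HIF1α-ko (−3.76, limma adjusted p = 1.97e-06) and in HIF1α/2α-ko (−2.83, 1.56e-06). PDK1, which closes the entry of pyruvate into the citric acid cycle, was at 17.4 to 24.8 TPM in vector, 4.93 to 5.81 TPM in HIF1α-ko, 15.4 to 21.5 TPM in HIF2α-ko and 10.2 to 14.4 TPM in HIF1α/2α-ko, and fell in HIF1α-ko (−1.78, limma adjusted p = 0.000156) and HIF1α/2α-ko (−0.77, 0.00492).

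LONP1, the protease that is known to degrade COX4I1 in hypoxia, was at 139 to 171 TPM in vector, 153 to 156 TPM in HIF1α-ko, 208 to 246 TPM in HIF2α-ko and 208 to 294 TPM in HIF1α/2α-ko, rising in the groups without HIF2α (0.62 and 0.78, limma adjusted p = 0.0185 and 0.000892). HIGD1A, a small protein of complex IV and supercomplexes that hypoxia is known to induce, rose in all 3 groups (0.91, 0.59 and 1.87), from 16.3 to 22.7 TPM in vector to 62.1 to 86.4 TPM in HIF1α/2α-ko. In all, 3, 3 and 4 of 11 such genes rose and 5, 0 and 3 fell. Of 14 supercomplex and cristae factors, 4, 3 and 6 rose and 0, 2 and 0 fell, and CHCHD6, a protein of the cristae junctions, was at 7.13 to 11.2 TPM in vector and 25.3 to 29.8 TPM in HIF1α/2α-ko (1.41, limma adjusted p = 4.54e-05).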

How the data were processed

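Messenger RNA was sequenced from U87 cells in 12 libraries, 3 for each of 4 groups. The authors deposited TPM values for 20263 genes, in which reads are divided by transcript length and each library is scaled to a fixed total, here 999955 to 999982. The submitters' processing notes name FastQC 0.11.2, Trimmomatic 0.36, HISAT2 2.0, bedtools 2.26.0 and GRCh38, without roles. The tool that made the TPM values and its annotation are not given in the sources used here. TPM keeps no depth, so no count test, counting interval or detection limit could be given.

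Groups came from the sample labels. The columns of the vector libraries were assigned because their names carry no knockout code. Symbols were taken from a gene name table for 20148 genes and from GENCODE 29 for 76, and 39 had none. The members and lists were chosen with earlier results of these data known. Genes with at least 1 TPM in at least 3 libraries (11731) were tested on log2(TPM + 1) with limma 3.58.1 in R 4.3.3, in a model of all 4 groups with a mean-variance trend and Benjamini-Hochberg adjustment over all genes tested, at an adjusted p of 0.05. The fit was tested on simulated data. Tables were built in pandas 2.3.3 and numpy 2.4.6 under Python 3.11.15, and figures were drawn in matplotlib 3.10.9.

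Named with values were the mitochondrially encoded members, the alternative isoforms and their counterparts, SDHA to SDHD, ATP5IF1, the 3 largest rises and 3 largest falls past the threshold in each of complexes I, III, IV and V in each contrast with vector, from each list the 2 genes lowest in p in the dual knockout, and PDK1, BNIP3, LONP1, HIGD1A, TFAM and PPARGC1A. Members of the sets described together are also named.

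The labels number the libraries 1 to 3 in each group without saying what a number marks. Deviations from the group means correlated between same-numbered libraries at 0.196 to 0.508 in 9 pairs of knockout libraries and at −0.0265 to 0.163 in 9 pairs of a vector with a knockout library. Knockout libraries numbered 2 and 3 correlated with each other at 0.158 to 0.302, so the values set replicate 1 apart and do not pair 2 with 2 and 3 with 3. Knockout groups were compared within numbers on this basis, from the values alone. Alternatives were a pseudocount of 0.1, no filter (16881 genes), a mean of at least 5 TPM (8011 genes), median ratio scaling, a total without the mitochondrially encoded members, fits of 2 groups only, the replicate block and leaving out each library. Leaving out replicate 1 of every group and the replicate block on the knockout groups alone were added after seeing the data. Promoter windows and motifs used RefSeq on GRCh38.p14, and positions GENCODE 29 on GRCh38.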

Additional observations from a re-analysis of the deposited data

Results flagged for a closer look

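The effect of HIF2α loss in cells without HIF1α (HIF1α/2α-ko against HIF1α-ko) differed from that in cells with HIF1α (HIF2α-ko against vector) for 17 nuclear members by the limma interaction term, and the values below are the first less the second on the log2 scale. Of all genes tested, 13.2% had a positive term and 7.35% a negative one. The share of members called, 17 of 83, was therefore about that of all genes. The difference was negative for NDUFA1 (−0.99, adjusted p = 0.00925), whose effects were −0.05 without HIF1α and 0.94 with it. It was also negative for NDUFB2 (−0.90), NDUFA2 (−0.85), NDUFA8 (−0.78), COX7A2 (−0.66), NDUFS3 (−0.66), COX5B (−0.57), UQCR11 (−0.54) and COX6B1 (−0.46, adjusted p = 0.0484). In these 9 genes HIF2α loss went with higher transcript in cells that kept HIF1α, by 0.45 to 0.94, and with a difference of −0.22 to −0.01 in cells that had lost it. Low values in the vector libraries would by themselves make the term negative.

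The difference was positive for SDHB (0.89, adjusted p = 0.0117), whose effects were 0.64 without HIF1α and −0.25 with it, and for ATP5PF (0.87, adjusted p = 0.0056). It was also positive for NDUFA9 (0.80), COX5A (0.69), NDUFS6 (0.65), UQCRFS1 (0.64), ATP5MC2 (0.57) and SDHA (0.55). Of the 13 among them named by rule, the calls of ATP5MC2, COX6B1, NDUFS6, SDHA, UQCR11 and UQCRFS1 were lost when some 1 library was left out, and those of ATP5MC2, COX6B1, NDUFS6, SDHA and COX5A were lost with median ratio scaling.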

How the results depend on the processing

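Median ratio scaling gave 12 rises of nuclear members and 3 falls in HIF1α-ko (33 and 1 on the TPM scale), 1 fall in HIF2α-ko (3), 26 rises and 7 falls in HIF1α/2α-ko (45 and 2), 10 calls in HIF1α/2α-ko against HIF1α-ko (16), 7 in HIF1α-ko against HIF2α-ko (17), and 0 mitochondrially encoded calls in HIF1α/2α-ko against HIF2α-ko (1), which was also 0 with no filter on low values. Fits of 2 groups only gave 20 rises and 0 falls in HIF1α-ko, 10 rises and 1 fall in HIF2α-ko (20 rises in the model of all groups), 1 fall in HIF1α/2α-ko, and, of mitochondrially encoded members, 1, 8 and 2 calls in HIF1α/2α-ko against HIF1α-ko, HIF1α/2α-ko against HIF2α-ko and HIF1α-ko against HIF2α-ko (0, 1 and 0).

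The replicate block in all groups gave 2 nuclear falls in HIF1α-ko, 1 mitochondrially encoded fall in HIF2α-ko, and 1, 9 and 4 mitochondrially encoded calls in HIF1α/2α-ko against HIF1α-ko, against HIF2α-ko and in the interaction. The replicate block on the 3 knockout groups, added after seeing the data, gave 27, 45 and 29 nuclear and 8, 12 and 9 mitochondrially encoded calls in HIF1α/2α-ko against HIF1α-ko, HIF1α/2α-ko against HIF2α-ko and HIF1α-ko against HIF2α-ko. Without replicate 1 of every group, also added, there were 6 nuclear falls in HIF1α-ko, 32 rises and 6 falls in HIF2α-ko, 5 falls in HIF1α/2α-ko and 33 nuclear interaction calls, with 2, 1 and 7 mitochondrially encoded rises against vector and 3, 11, 1 and 1 calls in the 3 comparisons between knockouts and the interaction. The value of MT-ND3 in HIF2α-ko went from −0.27 to 0.53 there.

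Leaving out 1 library at a time gave, for nuclear members, 17 to 35 rises and 0 to 3 falls in HIF1α-ko, 9 to 25 and 1 to 3 in HIF2α-ko, and 40 to 48 and 0 to 2 in HIF1α/2α-ko. The calls ran from 9 to 19 in HIF1α/2α-ko against HIF1α-ko, 20 to 35 in HIF1α/2α-ko against HIF2α-ko, 8 to 21 in HIF1α-ko against HIF2α-ko and 10 to 21 in the interaction. For mitochondrially encoded members the range was 0 to 1 rises in HIF1α-ko, 0 to 1 falls in HIF2α-ko, 0 to 7 rises in HIF1α/2α-ko, and 0 to 1, 0 to 8 and 0 to 4 calls in HIF1α/2α-ko against HIF1α-ko, against HIF2α-ko and in the interaction. For the fits of 2 groups only and the replicate block in all groups, the share of all genes called is not given here. The same holds for most fits with 1 library left out. Without replicate 1 of every group, it is given above only for rises against vector. Where the share is missing, the counts show how the results moved, not how members compared with all genes. The causes were not tested. Depth is unknown, so what it limits could not be stated.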
